A study of Mus musculus with 2 samples.

Results

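The genes described here encode the protein parts of the spliceosome that carry its small nuclear RNAs, together with the factors that recognise the branch site and assemble the catalytic centre. They were chosen, with earlier results of these data known, by a rule on the annotated symbol of each probe. The rule takes symbols starting with Snrp, U2af, Lsm, Sf3a, Sf3b or Prpf (the last 4 followed by a digit), and Snu13 and Sf1. This gave 48 probes for 46 genes, out of 23473 probes and 19316 named genes in the table. No probe carried the symbol Snu13. Total RNA came from vesicles in the medium of murine cytotoxic T lymphocytes (CTL), which destroy infected cells and tumour cells, after 7 days of culture. The medium was concentrated by ultrafiltration with a 750 kDa cutoff and loaded on a column of DEAE, a positively charged resin from which more negatively charged particles leave at higher salt. One group is the fraction eluted at 0.5 M NaCl and the other is the fraction eluted at 0.3 M NaCl, with 1 Cy5 array of amplified RNA for each. Neither the strain and age of the mice, nor the stimulus, nor the number of preparations pooled in a fraction is known from the sources used here.

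Splicing removes introns from messenger RNA precursors in the nucleus. Each major spliceosomal small nuclear RNA is wrapped by a ring of Sm proteins, except U6, which carries a ring of the related Lsm proteins. A second Lsm ring, with Lsm1 in place of Lsm8, works in the cytoplasm, where it binds the ends of messenger RNAs that are about to lose their cap. The SF3a and SF3b complexes hold U2 on the branch site, the adenosine where the lariat forms. U2af and Sf1 mark the end of the intron before U2 arrives, and the Prpf proteins join mostly with the U4/U6.U5 particle or the Prp19 complex. Most of these genes are active in any dividing cell, T cells included. The messenger RNAs for these proteins were measured, and neither the proteins nor the small nuclear RNAs were.

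With 1 array per fraction there is no replicate, no test and no p-value, and every difference describes this pair of arrays. Precision is limited by this number of arrays. Differences are log2 intensity at 0.5 M minus 0.3 M. Each array was first centred on its median over the 16154 probes with a value on both, which was 26 at 0.5 M and 32 at 0.3 M, a shift of -0.30. A difference of 0 therefore means that a gene moved with the array's median, and a gene with equal deposited intensities on both arrays has a difference of 0.30. A gene was kept where 1 array or both showed it no dimmer than the middle of the measured genes, about 26 at 0.5 M or 32 at 0.3 M, which left 7446 of 13735 genes. Where a kept gene had several probes, their differences had an SD of 0.55 around the gene's mean (358 genes), and 0.44 for bright probes (54 genes). No other error could be had but the rounding of the deposited values, and the spread between preparations is in neither. A lower share of vesicles carrying an RNA and less of that RNA per vesicle cannot be told apart in such samples. Intensities of different probes depend on the probe and are not compared as amounts of RNA.

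Markers of CTL were present on both arrays. Cd8a read 2463 at 0.5 M and 3677 at 0.3 M, Gzmb 2838 and 2493, and Tbx21 25174 and 39433, whereas Cd3e (14 and 12) and Prf1 (26 and 33) were dim. Cd8b1 read 496 at 0.5 M and 333 at 0.3 M, and Cd3g 162 and 105. The 7 CTL markers summed to 31173 at 0.5 M against 46086 at 0.3 M, but Tbx21 makes up most of both sums, and Cd8b1, Cd3g, Gzmb and Cd3e read higher at 0.5 M. Markers of other cells differed between the fractions too. The 4 markers of B cells and antigen-presenting cells with a probe summed to 1390 at 0.5 M against 340 at 0.3 M, although Cd79a was near the floor at 11 and 15. The 3 red cell markers summed to 7896 against 17115. Of the macrophage markers, Mrc1 read 87 at 0.5 M and 259 at 0.3 M, Cd68 read 53 and 50 and Adgre1 was empty on both arrays, so their sums of 140 against 309 differ through Mrc1 alone. The part of such cells in the differences of spliceosome genes was not tested.

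Spliceosome genes were measured well enough to compare for 32 of the 46, and their median difference lay above that of all kept genes. None of the 32 was 2-fold higher or 2-fold lower at 0.5 M. Over all 7446 kept genes 5.24% were at least 2-fold higher and 2.35% at least 2-fold lower, so a count of 0 in 32 is close to that background. The median difference of the 32 was 0.39, against 0.08 over all kept genes, and their differences ran from -0.67 to 0.88. Above 0 were 27 of the 32 genes, against 55.9% of all kept genes. That count rests on the scaling, since 17 were above 0 as deposited, against 34.4% of all genes, and 21 with a loess trend on level removed, against 49.9%. The spread was not even across roles. After centring, the kept genes of small ring proteins lay above 0, and those of the SF3, Sf1, U2af and Prpf factors lay on both sides. Of the small ring genes under the filter, Lsm11 (-0.38) and Snrpn (-0.08) lay below 0 and Lsm2 (0.02) above. The plot of intensities by gene shows the values before centring, where Lsm1, a small ring protein, was lower at 0.5 M (36 against 41).

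**Figure D1:**
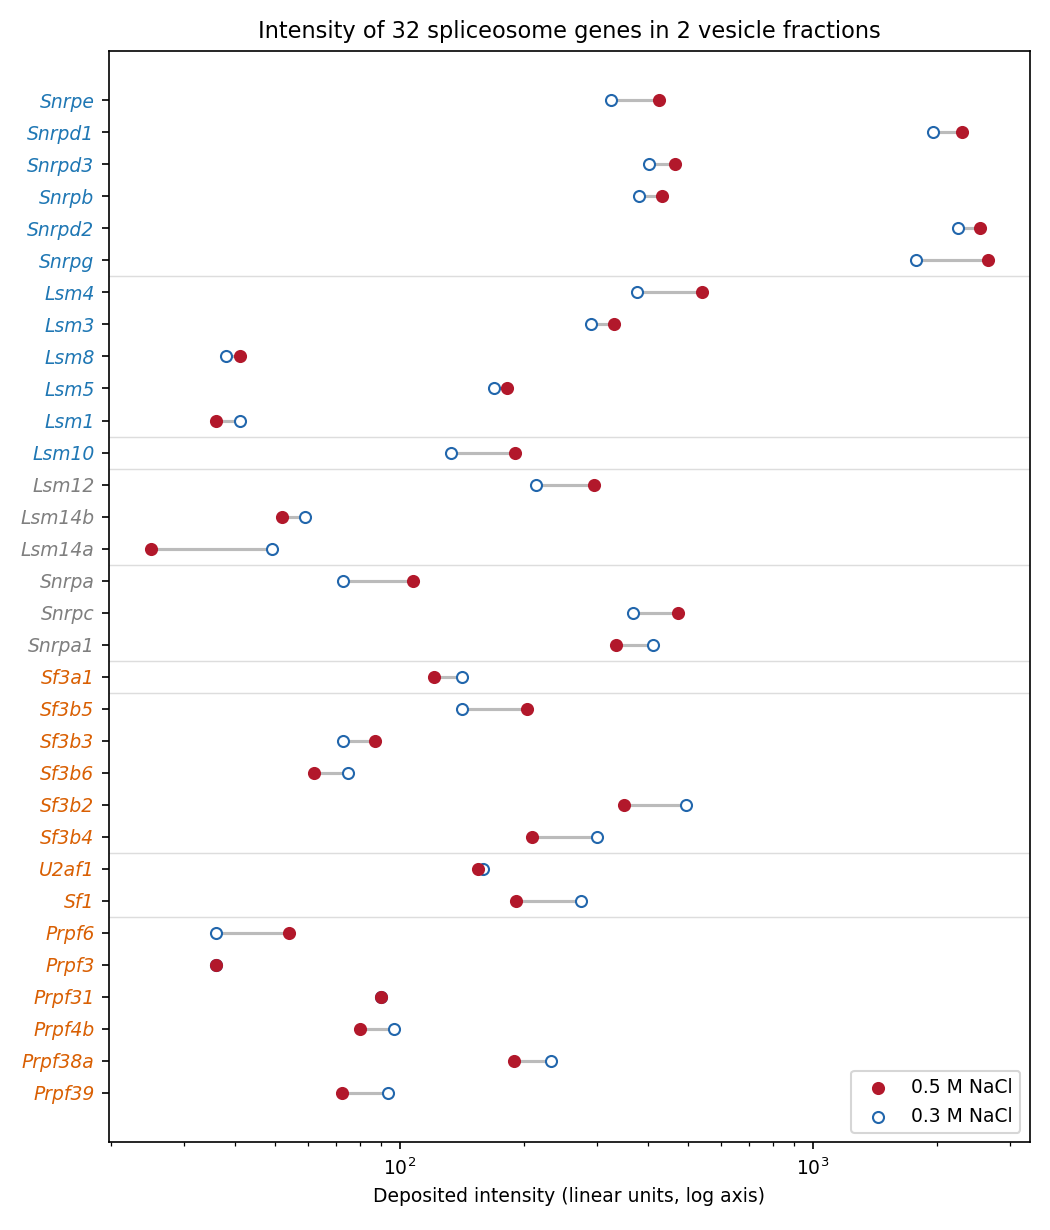
Deposited intensity (linear units on a log axis, before centring) of the 32 kept genes at 0.5 M NaCl (filled red) and 0.3 M NaCl (open blue), with 1 array each and no error bars. Gene names are blue for Sm and Lsm ring proteins, grey for other Lsm, U1 and U2 proteins and orange for SF3, Sf1, U2af and Prpf factors. Snrpg and Prpf39 are means of several probes, and the marks of Prpf3 and Prpf31 coincide. Red lies to the right for every Sm gene shown and to the left for Sf3b2, Sf3b4 and Sf1.

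The Sm core is the ring of proteins that closes around U1, U2, U4 and U5. All 6 kept Sm genes had differences above 0, against 55.9% of all kept genes, and their median was 0.50. Each of their probes but 1, the dim probe of Snrpg, read higher at 0.5 M even before centring. Bright genes as a whole were higher at 0.5 M. Set against the 200 genes outside the Sm core nearest in brightness, 4 of the 6 lay above, with a median excess of 0.18. With a loess trend on level removed, 5 of the 6 were above 0, against 49.9% of all kept genes. Snrpe, a ring subunit, read 425 at 0.5 M and 325 at 0.3 M, a difference of 0.69. Snrpd1 and Snrpd2, which enter the ring as a pair, both had bright probes. Snrpd1 read 2298 at 0.5 M and 1957 at 0.3 M (0.53), and Snrpd2 read 2540 and 2254 (0.47). The other D subunit and its partner behaved alike. Snrpd3 read 465 at 0.5 M and 402 at 0.3 M (0.51), and Snrpb read 433 and 380 (0.49). These 5 differences span less than the SD between probes of a gene, so they do not order the subunits.

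Snrpg, another ring subunit, is the one Sm gene with more than 1 probe, and its probes disagreed. The bright probe read 5287 at 0.5 M and 3523 at 0.3 M, a difference of 0.89. The dim probe read 27 at 0.5 M and 37 at 0.3 M, a difference of -0.155. Their mean gives the gene 0.37, the lowest of the Sm core, and the brightest probe alone gives 0.89, the highest. Which of them reports Snrpg better was not tested. Snrpn, a close relative of Snrpb known mainly from the brain, was dim at 10 at 0.5 M and 13 at 0.3 M and stayed under the filter. Shared binding of the probes of this pair was not checked. No probe carried the symbol Snrpf.

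The Lsm proteins form rings of the same fold. Of the genes for Lsm1 to Lsm8, 5 were kept, with a median difference of 0.41. All 5 were above 0 after centring, against 55.9% of all kept genes. Lsm4, a subunit of both the nuclear and the cytoplasmic ring, had the largest, with 539 at 0.5 M and 376 at 0.3 M (0.82). Lsm3, also shared by both rings, read 330 at 0.5 M and 291 at 0.3 M (0.48). Lsm5, shared as well, read 182 and 169 (0.41). The subunits that tell the rings apart were both dim. Lsm8, the mark of the nuclear U6 ring, read 41 at 0.5 M and 38 at 0.3 M (0.41). Lsm1, the mark of the cytoplasmic decay ring, read 36 and 41 (0.11, and -0.19 as deposited). The gap between Lsm8 and Lsm1 is smaller than the SD between probes, so no preference of a fraction for either ring can be read from it. Lsm2 read 14 at 0.5 M and 17 at 0.3 M and stayed under the filter. Lsm6 read 22 at 0.3 M and was empty at 0.5 M. No probe carried the symbol Lsm7.

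Lsm10 and Lsm11 replace a pair of Sm subunits in the U7 particle, which trims the ends of histone messenger RNAs. Lsm10 read 190 at 0.5 M and 133 at 0.3 M, a difference of 0.81. Lsm11 was dim, with 10 at 0.5 M and 16 at 0.3 M, and was not kept. Larger proteins with an Lsm domain that enter no such ring went different ways. Lsm12 read 296 at 0.5 M and 214 at 0.3 M (0.77). Lsm14a, which binds translationally silent messenger RNAs in cytoplasmic granules, read 25 at 0.5 M and 49 at 0.3 M. Its difference of -0.67 was the lowest of the 32, on a probe under the filter at 0.5 M. Its relative Lsm14b read 52 and 59 (0.12, and -0.18 as deposited).

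Proteins bound to only 1 kind of small nuclear RNA were kept for U1 and U2. The U1 proteins were both above 0, against 55.9% of all kept genes. Snrpa, the U1 protein that binds a stem loop of the RNA, read 108 at 0.5 M and 73 at 0.3 M (0.86), and Snrpc, which helps U1 meet the start of the intron, read 472 and 368 (0.66). For U2, Snrpa1 read 335 at 0.5 M and 411 at 0.3 M (0.0046 after centring, -0.30 as deposited). Its partner Snrpb2 read 8 at 0.5 M and was empty at 0.3 M, so U2 rests on a single gene.

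The SF3 complexes, which are parts of the U2 particle, had members on both sides of 0. Sf3b2 and Sf3b4 were lower at 0.5 M under each scaling. Sf3b2, which contacts the branch region together with Sf3b4, read 349 at 0.5 M and 494 at 0.3 M (-0.20), and Sf3b4 read 209 and 301 (-0.23). Against them stood Sf3b5, one of the smallest spliceosome proteins, with 203 at 0.5 M and 142 at 0.3 M (0.82). Sf3b3, a large scaffold subunit, read 87 at 0.5 M and 73 at 0.3 M (0.55). Between these lay Sf3b6, which lies close to the branch adenosine, with 62 at 0.5 M and 75 at 0.3 M (0.02). Sf3a1, the SF3a subunit that contacts U1 as well, read 121 at 0.5 M and 142 at 0.3 M (0.07). Both Sf3b6 and Sf3a1 lay just below 0 with quantile normalization (-0.02 each) and with loess. The subunits of 1 complex thus did not share a direction, and their median was 0.02 for the 5 kept SF3b genes. Sf3b1, the subunit often mutated in blood cancers, read 6 at 0.3 M and was empty at 0.5 M. Sf3a2 (6 and 5) and Sf3a3 (16 and 21) were under the filter.

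Sf1, which binds the branch site before U2 replaces it, read 191 at 0.5 M and 275 at 0.3 M (-0.23, and -0.53 as deposited). U2af1, the U2af subunit that reads the AG at the intron's end, read 155 at 0.5 M and 159 at 0.3 M (0.26, and -0.04 as deposited). Its partner U2af2, which binds the pyrimidine tract, was dim at 20 and 23. Sf1 and U2af1 thus lay on opposite sides of 0 after centring and on the same side as deposited.

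The Prpf genes were mostly dim and near 0, with a median of 0.16 over the 6 kept of 11. Prpf6, a bridge between U5 and the U4/U6 particle, stood highest at 54 at 0.5 M and 36 at 0.3 M (0.88), which was also the highest of all 32 genes. Prpf3 and Prpf31, both U4/U6 proteins whose mutation causes retinitis pigmentosa in humans, read the same on both arrays. Prpf3 was at 36 on each and Prpf31 at 90 on each, so both differences are 0.30, the shift between arrays. Prpf4b, a kinase, read 80 at 0.5 M and 97 at 0.3 M (0.02). Prpf38a, whose yeast relative is needed to activate the assembled spliceosome, read 189 at 0.5 M and 232 at 0.3 M (0.0038). Prpf39, whose yeast relative belongs to U1, had probes at 135 and 174 and at 10 and 14 at 0.5 M and 0.3 M, both lower at 0.5 M (mean difference -0.13). Prpf8, the protein that forms the catalytic cavity, was at 6 at 0.5 M and 8 at 0.3 M, near the lowest intensities of either array. Nothing can be said of its RNA from this probe.

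**Figure D2:**
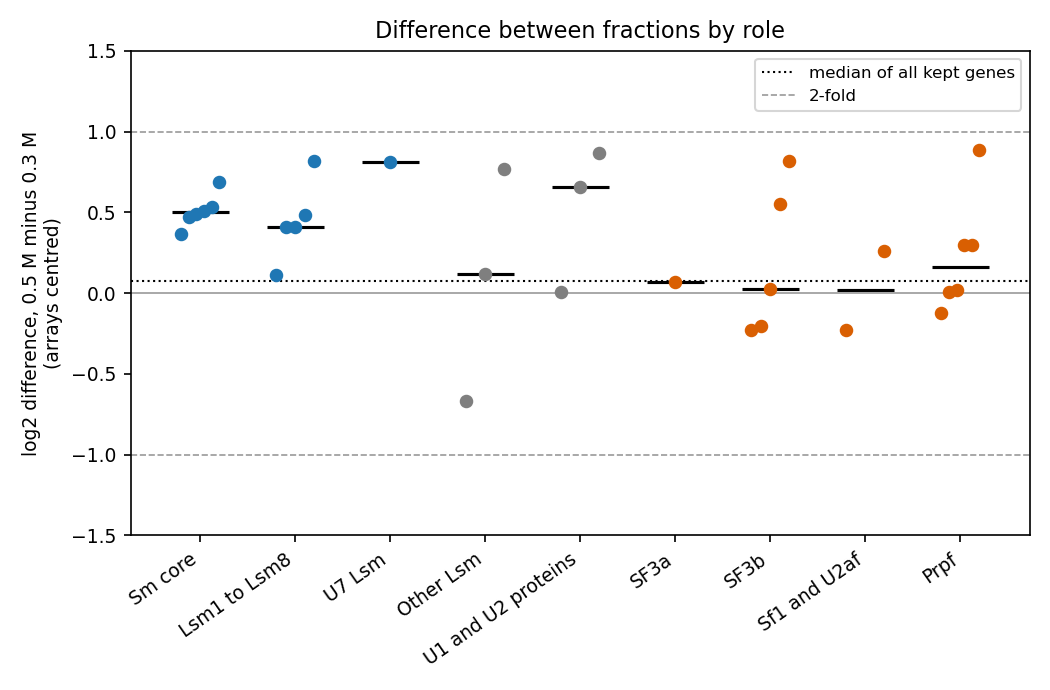
Difference between fractions (log2, 0.5 M minus 0.3 M, arrays centred) for the 32 kept genes by role, 1 point per gene, with black bars at the median of each role. The dotted line is the median of all 7446 kept genes (0.08) and the dashed lines are 2-fold. All 12 Sm and Lsm ring genes (blue) lie above 0, against 55.9% of all kept genes. The 14 SF3, Sf1, U2af and Prpf genes (orange) lie from -0.23 to 0.88.

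The 14 genes that were not kept fall into those below the filter on both arrays and those with an empty cell. There were 10 of the first kind, whose intensities lay between 6 and 20 at 0.5 M and between 5 and 28 at 0.3 M. Only Prpf40b, a relative of a U1-binding factor of yeast, passed 2-fold among them, with 10 at 0.5 M and 28 at 0.3 M (-1.19), and of all 13735 genes with no filter 2.77% were at least 2-fold lower and 5.1% at least 2-fold higher. A pseudocount of 16 brought it to -0.57. Prpf18, which acts in the second step of splicing, read 10 and 7 (0.81), and Prpf19, a ubiquitin ligase, read 17 and 18 (0.22). Rounding to whole numbers alone can move a difference in this group by up to 0.27, against up to 0.12 among probes of kept genes. The other 4 had a value on 1 array, and 3 of these, Lsm6, Sf3b1 and Prpf38b (7), had it at 0.3 M. Empty cells were more common at 0.5 M over the whole table as well. Of its 23473 probes, 16732 had a value at 0.5 M and 18969 at 0.3 M.

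The small ring proteins were then set against the large factors. The small class holds the Sm, Lsm1 to Lsm8 and U7 Lsm genes, and the large class holds the SF3a, SF3b, Sf1, U2af and Prpf genes. The small class had a median difference of 0.48 over 12 genes, from 0.11 to 0.82, and the large class 0.05 over 14 genes, from -0.23 to 0.88. The median of the small class exceeded that of the large class by 0.44. The ranges of the classes overlap, and without replicates the gap has no error of its own. Above the median of all kept genes lay 12 of 12 small and 6 of 14 large genes. The classes follow role and not protein length, so Sf3b5, small as a protein, counts as large by this rule. Without Sf3b5 and Sf3b6, left out after their values were seen, the gap was 0.44. Sf3b5 (0.82) lies above the large class median and Sf3b6 (0.02) below it, so leaving out both could hardly move that median.

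The classes also differ in brightness, and bright genes as a whole were higher at 0.5 M. The median intensity of the small class was 429 at 0.5 M and 350.5 at 0.3 M, that of the large class 105.5 and 119.5. Among the brightest 10% of all kept genes the median difference was 0.46, against -0.04 among the dimmest 10%. Each gene was therefore set against the 200 non-member genes nearest to it in level. The small class lay above its neighbours for 10 of 12 genes, with a median excess of 0.25, and the large class for 6 of 14, with a median of -0.03. The gap between the classes was then 0.27. The exceptions in the small class were the bright Snrpd1 (-0.05) and Snrpd2 (-0.13), whose neighbours had medians of 0.58 and 0.60. Farthest above their neighbours were Prpf6 (0.85), Sf3b5 (0.75), Snrpa (0.74), Lsm10 (0.70), Sf3b3 (0.60) and Lsm12 (0.59). Farthest below were Lsm14a (-0.69), Sf3b2 (-0.47), Sf1 (-0.43) and Sf3b4 (-0.40). Over all 32 genes the median excess was 0.16, and 20 lay above their neighbours.

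**Figure D3:**
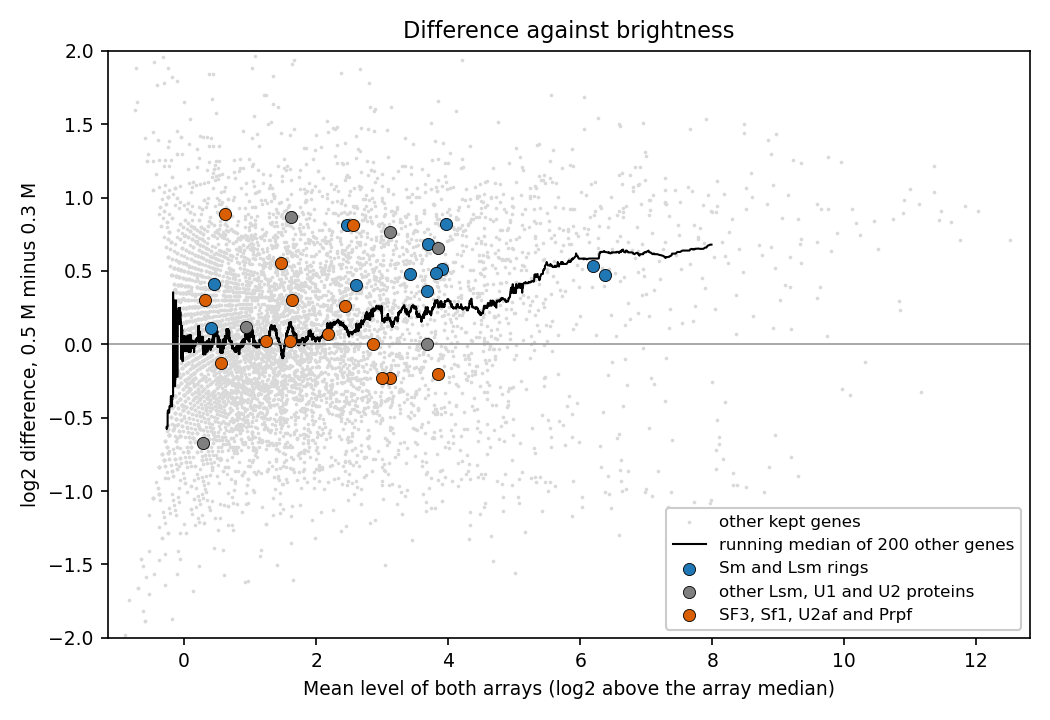
Difference between fractions (log2, 0.5 M minus 0.3 M) against mean level on both arrays (log2 above the array median) for the kept spliceosome genes (coloured) and the other 7414 kept genes (grey, with 10 beyond the vertical axis). The black line is a running median over 200 other genes, and it is uneven at the dim end, at the edge of the filter. Most blue points lie above the line, except the pair at the bright end, and orange points lie on both sides.

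A restriction to a common range of brightness gave a similar picture. It was added after the values were seen. Between 100 and 600 in intensity on both arrays lay 7 small and 7 large genes. The small genes there were Lsm10, Lsm3, Lsm4, Lsm5, Snrpb, Snrpd3 and Snrpe, and the large ones Prpf38a, Sf1, Sf3a1, Sf3b2, Sf3b4, Sf3b5 and U2af1. Their medians were 0.51 and 0.0038, against 0.19 for the 1733 other kept genes in that range. Above 0 were 7 of the 7 small genes and 4 of the 7 large genes, against 64.6% of those other genes. Sf3b5 was the only large gene there above the lowest of the small genes. The range narrows the difference in brightness but does not match it. At 0.5 M the small genes there ran from 182 (Lsm5) to 539 (Lsm4). The large ones ran from 121 (Sf3a1) to 349 (Sf3b2). The part of brightness in this gap was not tested.

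The gap between the classes kept its sign under each scaling tried, although the side of 0 on which the large class lies did not hold. With quantile normalization the small class had a median of 0.30 and the large class -0.02. With a loess trend on level removed they were at 0.27 and -0.02, and as deposited at 0.18 and -0.25. All genes kept in these settings had medians of 0.00, -0.0014 and -0.22. The large class was therefore near the median of all genes each time, and the small class exceeded it by 0.30 with quantile normalization, 0.27 with loess and 0.41 as deposited. Above 0 lay 11 of the 12 small genes with loess, where Snrpd2 was at -0.03, against 49.9% of all kept genes. As deposited it was 11 as well, where Lsm1 was below, against 34.4% of all kept genes. None of the 32 genes passed 2-fold in any of these 3 settings. As deposited 1.63% of all genes were at least 2-fold higher and 7.78% lower, with quantile normalization 3.32% and 3.79%, and with loess 3.16% and 3.93%.

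**Figure D4:**
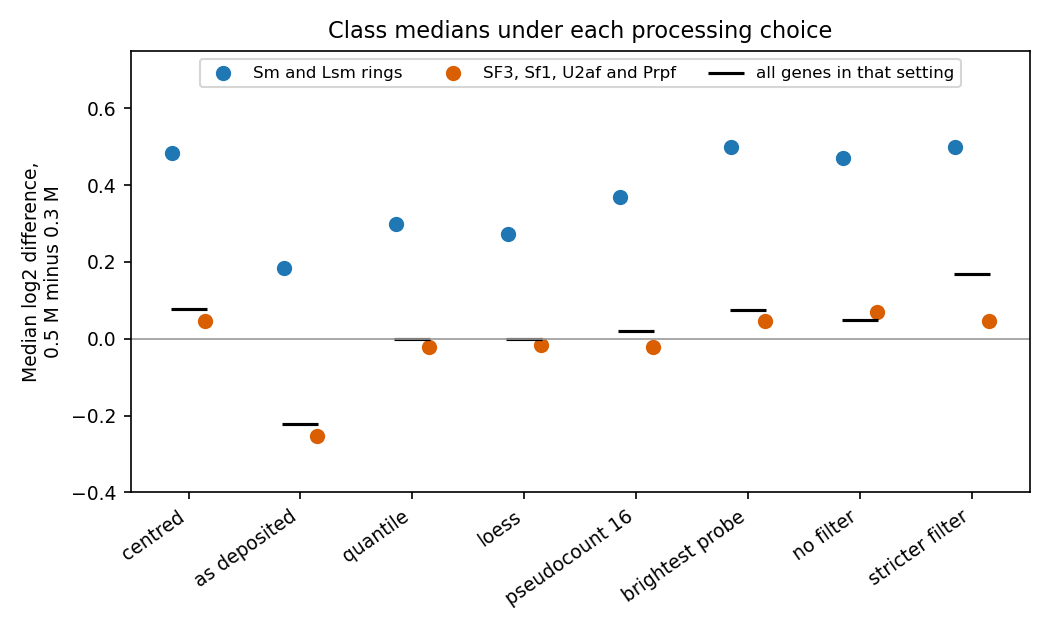
Median difference (log2, 0.5 M minus 0.3 M) of the small class (blue, Sm and Lsm rings) and the large class (orange, SF3, Sf1, U2af and Prpf) under 8 processing settings, with the median of all genes in that setting as a black bar. There are no error bars, as there is 1 array per fraction. The small class lies above 0 and above the large class in all 8, from 0.18 to 0.50, and the large class lies between -0.25 and 0.07.

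Other genes of the splicing pathway were looked at as lists that the symbol rule does not reach. Of 84 such genes with a probe, 52 were kept, with a median difference of 0.20. Of these, 6 reached the filter at 0.5 M only, where they are higher (Ddx46, Gemin7, Htatsf1, Syf2, U2surp and Zmat5), and 2 at 0.3 M only (Dhx8 and Eftud2). The 44 that reached it on both had a median of 0.16. Past 2-fold lay 2 genes on the higher and 1 on the lower side, which is near the background given above. As deposited the median was -0.10 over all 52, and it was also below 0 in the U5, U2-associated, Prp19 and SMN lists described next (-0.28, -0.07, -0.17 and -0.0096), each above 0 after centring. The U5 list was below 0 with quantile normalization and loess too (-0.05 each). Genes named Snrnp and proteins of the minor spliceosome had a median of 0.35 over 7 kept genes, against 0.05 as deposited. Above 0 were 6 of the 6 that reached the filter on both arrays, against 55.9% of all kept genes, and with no filter a gene at -0.55 joined the list. Snrnp70, the U1 protein that works beside Snrpa and Snrpc, read 259 at 0.5 M and 197 at 0.3 M (0.69). Zmat5, of the minor spliceosome, read 39 and 31 (0.63) and was kept through the 0.5 M array. Snrnp70, Snrpa and Snrpc lay between 0.66 and 0.86 after centring, and between 0.36 and 0.57 as deposited. Snrnp70 was named because it stood highest in its list, so its nearness to the other U1 proteins is no separate support.

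Partners of U5 and the tri-snRNP had a median of 0.02 over 6 genes, led by Zmat2 (77 at 0.5 M and 82 at 0.3 M, 0.21) and Usp39 (0.19). Eftud2, the GTPase that drives U5 rearrangements, read 26 at 0.5 M and 45 at 0.3 M (-0.49), and Sart3, which recycles U6, was at -0.04. U2-associated proteins had a median of 0.22 over 10 genes, and 0.11 over the 7 that reached the filter on both arrays. Highest of the 10 were U2surp (0.52), kept through the 0.5 M array, and Puf60 (0.52), a relative of U2af2. The helicase Dhx15 was at -0.09. The Prp19 complex and catalytic step factors had a median of 0.13 over 11 genes and lay between -1.09 and 1.20. Syf2 read 54 at 0.5 M and 29 at 0.3 M (1.20) and Dhx16, a helicase needed for the first step, 170 and 134 (0.64). Dhx8, the helicase that releases the spliced message, read 26 at 0.5 M and 68 at 0.3 M (-1.09), ahead of Cdc40 (-0.22). Both Syf2 and Dhx8 were dim on 1 of the arrays.

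Other genes build the Sm ring in the cytoplasm. The SMN complex and the methylosome, which loads and methylates Sm proteins, had a median of 0.29 over 9 genes, with 6 above 0, a share near the 55.9% of all kept genes. Gemin5, which recognises the small nuclear RNA, read 78 at 0.5 M and 47 at 0.3 M (1.03), and Gemin7, kept through the 0.5 M array, read 27 and 21 (0.66). Wdr77, the methylosome subunit that presents Sm proteins to the methyltransferase, read 1112 at 0.5 M and 2613 at 0.3 M. Its difference was -0.93 after centring, -1.23 as deposited, -1.30 with quantile normalization and -1.39 with loess, all below the lowest of the Sm and Lsm ring genes in the same setting. Strap, an SMN partner, was at -0.29. Decapping partners of the cytoplasmic Lsm ring had 3 kept genes of 8. Edc4, a scaffold of the decapping enzyme, read 85 at 0.5 M and 158 at 0.3 M (-0.59), Edc3 was at -0.04 and Dcp1b at 0.14. SR proteins, which help choose splice sites, had a median of -0.14 over 6 genes, with Tra2a (0.93) and Tra2b (0.69) against Srsf9 (1797 at 0.5 M and 3050 at 0.3 M, -0.46) and Srsf6 (-0.41).

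Other multi-subunit groups were measured in the same way, and their place relative to the small class, whose median was 0.48, rests on the scaling. Proteasome subunits had a median of 0.37 over 32 genes, with 24 above 0, against 55.9% of all kept genes. That median was 0.07 as deposited and 0.16 with loess. Their excess over neighbours in level was 0.10, but 0.03 with the stricter filter and 0.0043 with the brightest probe of each gene. The cytosolic ribosomal proteins, 60 genes, were at a median of 0.60, above the small class. With quantile normalization they were at 0.25 and with loess at 0.05, below the small class in both settings (0.30 and 0.27). Their excess over neighbours was 0.19, and 0.08 with loess. The hnRNPs, which bind the same precursor messenger RNAs, had a median of -0.12 over 13 genes and an excess of -0.29. Above 0 were 5 of the 13, against 55.9% of all kept genes. The median of the hnRNPs was -0.42 as deposited, -0.31 with quantile normalization and -0.33 with loess. Without replicates, none of these differences between lists has a test, and the Sm and Lsm genes cannot be called particular in this respect.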

How the data were processed

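The authors deposited 1 linear intensity per probe and array, as a whole number. Amino allyl aRNA was made and coupled to Cy5, per the labels' protocols. How the arrays were scanned, background-corrected and normalized by the authors, and why some cells are empty, is not given in the sources used here. Empty cells were left out and no floor was set. Of 23473 probes, 16732 had a value at 0.5 M and 18969 at 0.3 M. Symbols came from the array annotation for 20690 probes and were looked up by Entrez identifier for 20556 in a RefSeq table of assembly GRCm38.p6. Intensities were log2-transformed and centred on the shared probes, and probes of a gene were averaged. Members and lists were chosen with earlier results of these data known. All kept members were named, and of each list of other splicing genes up to 2 kept genes on each side of 0, those farthest from it. Neighbours in level were the 200 nearest kept non-members. The alternatives tried were no centring (values as deposited), quantile normalization, loess (span 0.3), a pseudocount of 16, the brightest probe, no filter and a filter at the 75th percentile. Python 3.11.15, pandas 2.3.3 and statsmodels 0.14.6 were used, and the steps were tested on simulated data.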

Additional observations from a re-analysis of the deposited data

How the results depend on the processing

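Medians, counts past 2-fold and the differences of the 32 kept genes were recomputed under 7 alternatives, with 1 choice altered each time. The gap between the small and the large class was 0.44 and kept its sign, from 0.29 with loess to 0.45 with the brightest probe or the stricter filter. It was 0.51 between intensities of 100 and 600, where brightness was not fully matched, and 0.27 over neighbours in level. The median of all kept members (0.39) was 0.086 as deposited, 0.21 with quantile normalization, 0.20 with loess, 0.28 with a pseudocount and 0.28 with no filter. The small class median (0.48) was 0.18 as deposited, 0.30 with quantile normalization, 0.27 with loess and 0.25 over neighbours in level. That of the large class (0.05) turned to -0.25 as deposited, -0.02 with quantile normalization, loess and a pseudocount alike (-0.0216, -0.0174 and -0.0214), and -0.026 over neighbours. The other splicing genes (0.20) turned to -0.10 as deposited and were at 0.0995 with quantile normalization, 0.10 with loess and 0.12 with no filter. Members at least 2-fold lower numbered 1 with no filter, which is Prpf40b, and 0 otherwise. The as-deposited values differ by the constant shift alone. The cause of the other moves was not tested. Among the 32 genes 10 changed sign as deposited (2 of them, Prpf3 and Prpf31, to 0), 5 with quantile normalization, 6 with loess and 5 with a pseudocount. Each of the 32 moved by less than 0.55, the SD between probes over all kept genes. Snrpd1 (0.05 with loess), Snrpd2 (-0.03 with loess) and Snrpg (0.89 with the brightest probe) moved by more than the 0.44 of bright probes. A split of the classes by protein length was not run, since no protein sequences were at hand. No paired analysis was possible because there is 1 array per fraction. Dim probes limit Lsm1, Lsm8, Lsm14a, Prpf3 and Prpf6, whose intensities lie near the filter.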

Other observations

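The length of genes on the genome, introns included, was looked at after the values were seen. It was taken from the RefSeq table for 7436 of the 7446 kept genes, and it is not the length of the messenger RNA. The kept small class had a median gene length of 6498 bases and the large class 18003.5. Among all kept genes, the 25% with the shortest genes (median 2715 bases) had a median difference of 0.25 and the 25% with the longest (median 72555) -0.06. The next shortest 25% were at 0.15 and the next longest at 0.03. Brightness moved with length as well. The shortest 25% had median intensities of 85 at 0.5 M and 92 at 0.3 M, the longest 25% had 54 and 68. Single members went both with and against this trend. Sf3b5 (734 bases, 0.82) and Lsm14a (45883 bases, -0.67) went with it. Sf3b4 (5059 bases, -0.23) and Prpf6 (54343 bases, 0.88) went against it. The part of gene length and of brightness in the difference between classes was not separated.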
